A study of Mus musculus with 42 samples.

Results

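The transcriptional response of bone-marrow-derived macrophages (BMDM) to palmitate was measured at 2 h by RNA-seq in 12 of the 42 libraries of the series. The members are the 3 libraries of WT and the 3 of KO treated with palmitate for 2 h, and the 3 WT and 3 KO Control libraries of the same time, and palmitate was compared with Control with the genotype held apart. BMDM are macrophages grown from mouse bone marrow in culture, here in medium conditioned by L929 cells. KO marks mice that carry a loxP-flanked Irf5 (interferon regulatory factor 5, a transcription factor of inflammatory macrophages) and a Cre recombinase knocked into Lyz2, a gene of the myeloid lineage, and WT marks their wild-type counterparts. All mice were male young adults. Palmitate, the commonest saturated fatty acid of diet and blood, was dissolved in ethanol and carried by fatty-acid-free albumin, and whether Control wells received this vehicle is not stated, so that an effect of the fatty acid and one of its carrier cannot be told apart. Whether the 3 libraries of a group came from separate mice or cultures is not stated, so p-values measure the spread between libraries, which may be technical.

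Total counts lay between 5193344 and 6725200 in the 12 libraries, and levels are given as CPM (counts per 1000000, scaled by the TMM method of edgeR). A count of 3 equalled 0.446 to 0.578 CPM. Irf5 itself stood at 249.9, 245 and 259 CPM in WT Control, 284, 282 and 267 in WT palmitate, 291, 301 and 309 in KO Control and 294, 285 and 279 in KO palmitate. The libraries labelled KO were thus not lower in Irf5, and reads outside the deleted part would not show the deletion, so the genotype labels could not be checked from this gene. Lyz2 was at 9569 ± 336 CPM (SD, n = 3) in WT Control and 5307 ± 249.6 in KO Control. Without TMM scaling, as in every marker sum given here, the 14 macrophage marker genes summed to 12189 to 13025 CPM in KO palmitate, the lowest group, and to 16280.2 to 16948 in WT Control, the highest, and none of the 14 passed the test for palmitate. Lyz2, the gene that holds the Cre, is among these 14 and has the highest mean of them (7171 CPM over the 12 libraries, TMM-scaled). The sums therefore largely follow Lyz2, and the lower KO sums do not by themselves show less macrophage RNA.

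Long-chain fatty acids that enter a macrophage are bound to coenzyme A, stored as triglyceride in lipid droplets or carried into mitochondria for oxidation. They are also ligands of the peroxisome proliferator-activated receptors (PPAR), nuclear receptors that switch on genes of fatty acid storage and oxidation. Other sensors govern sterols: liver X receptors (LXR), activated by oxysterols, raise cholesterol efflux genes, and the sterol regulatory element binding proteins (SREBP) raise the genes of sterol synthesis and uptake when membrane sterol is low. In macrophages palmitate is further known for inflammatory and endoplasmic reticulum stress responses at longer exposures.

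Palmitate changed few genes by 2 h. Of 11624 genes tested, 27 were higher (0.232% of genes) and 36 were lower (0.310%) at an adjusted p under 0.05 in edgeR's quasi-likelihood test, and 917 had an unadjusted p under 0.05. The changes were small: the median size of the log2 fold change over the 63 called genes was 0.34, 4 rose by more than 1 on the log2 scale (Angptl4, Klf11, Chst15 and Plin2) and 1, Tnn, fell by more than 1 in the fit. In 40 of the 63, every palmitate library stood beyond every Control library of its own genotype, in the same direction in WT and KO, while 1.57% of all genes tested did so. The 63 were called on these same libraries, so their high share is largely fixed by the call and is no separate support. The count of 63 called genes fell to 28 without KO Control library 3, to 31 without KO palmitate library 1, to 35 without WT palmitate library 1, to 36 without WT Control library 2 and to 40 without WT palmitate library 2. It rose to 110 with no filter on low counts and to 109 when only the 12 libraries were fitted. A core of 23 genes kept the call in all 12 fits that left out 1 library and in the 5 other analyses. Here and below, a missing adjusted p did not count as a lost call.

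**Figure D1:**
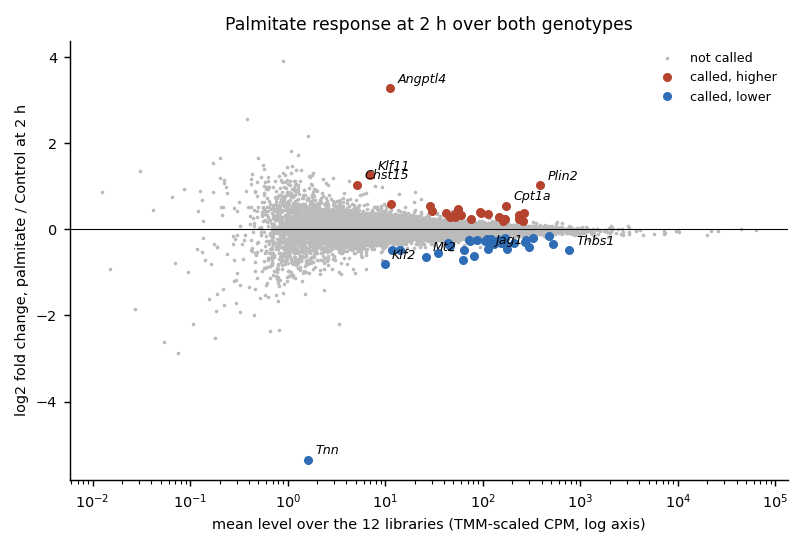
Log2 fold change of palmitate over Control at 2 h (vertical axis) against the mean level over the 12 libraries (horizontal log axis, CPM) for 11624 genes. Grey points were not called, red points are the 27 called higher and blue points the 36 called lower; Angptl4 and Plin2 lie far above the cloud, and Tnn, a gene near the detection floor, lies far below it.

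The 3 smallest adjusted p belonged to PPAR target genes. Plin2 (perilipin 2, the coat protein of lipid droplets; chr4:86648386-86670060 in mm10) had 265, 266 and 271 CPM in the 3 WT Control libraries and 489.5, 498 and 545 in WT palmitate, against 229.6, 274 and 239.7 in KO Control and 541, 538 and 509 in KO palmitate. All 6 palmitate libraries were above all 6 Control libraries, and the level was 2.02-fold that of Control (log2 1.02 ± 0.04 SE, adjusted p = 1.07e-24, edgeR). Angptl4, a secreted inhibitor of lipoprotein lipase, stood at 2.32, 2.48 and 2.52 CPM in WT Control and at 22.7, 15.8 and 20.5 in WT palmitate. In the libraries labelled KO it stood at 1.81, 1.61 and 1.87 in Control and at 20.4, 23.5 and 19.4 in palmitate. This was the largest rise of any called gene, at 9.72-fold (log2 3.28 ± 0.18 SE, adjusted p = 8.16e-20, edgeR), with no overlap between palmitate and Control. Cpt1a encodes carnitine palmitoyltransferase 1a, which commits long-chain fatty acids to mitochondrial oxidation. Its Control libraries spanned 129.8 to 148 CPM and its palmitate libraries 195 to 219, a rise of 1.46-fold (log2 0.55 ± 0.05 SE, adjusted p = 7.93e-10, edgeR).

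Beyond these 3, the fatty acid oxidation program had not moved past the test at 2 h. Of 37 listed PPAR targets and oxidation genes, 31 were tested, 3 were called higher and none lower, and the median log2 fold change was 0.10 against 0.00 over all genes. Ucp2, Acadl and Slc25a20 (an uncoupling protein, a long-chain acyl-CoA dehydrogenase and the carnitine-acylcarnitine carrier), named after their values were seen, changed by 0.14, 0.20 and 0.34 on the log2 scale with adjusted p of 0.253, 0.297 and 0.307 in edgeR's test. Pdk4 had too few counts to be tested, and Hilpda, a lipid droplet protein induced by hypoxia and fatty acids, had 0.54 to 1.99 CPM in Control and 1.06 to 4.94 in palmitate, overlapping groups with a log2 difference whose 95% interval ran from 0.08 to 1.61. Of 16 lipid droplet and lipolysis genes tested, Plin2 alone was called, and none of 23 genes of fatty acid uptake, activation and desaturation was.

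**Figure D2:**
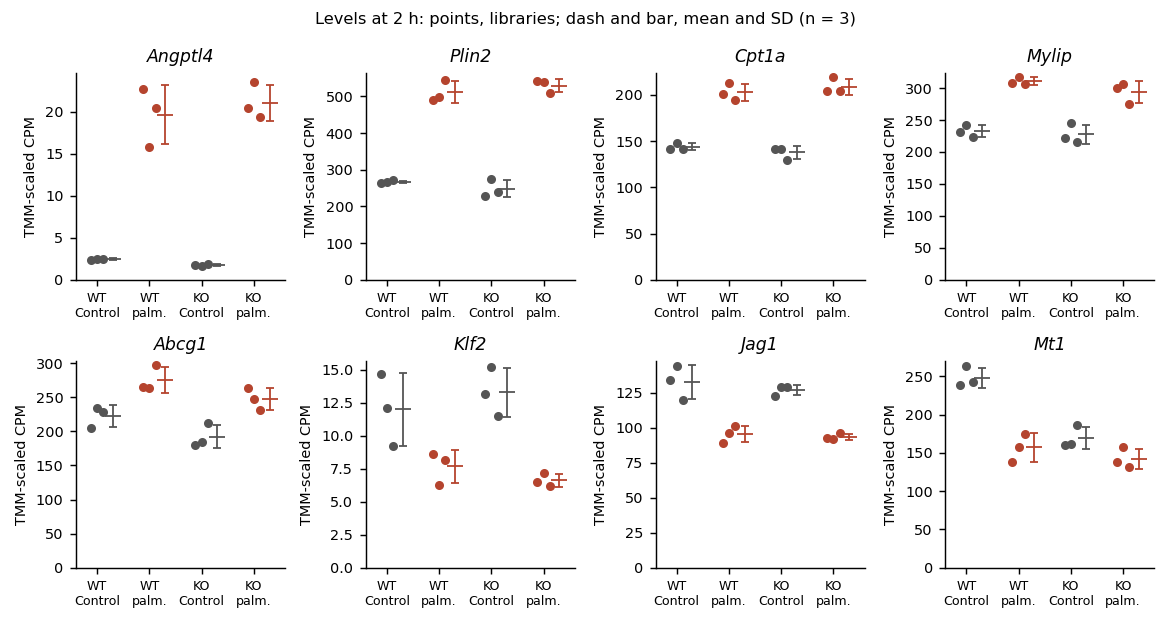
Levels (CPM, axes from 0) of 8 genes in the 12 libraries; points are libraries, dashes with bars are the mean and SD of 3, grey for Control and red for palmitate. Angptl4, Plin2, Cpt1a, Mylip and Abcg1 are higher in palmitate in both genotypes, Klf2 and Jag1 are lower in both, and the Mt1 difference is larger in WT, where Control is highest.

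The promoters of 2 of these genes are shown because the genes rose together in every palmitate library. They are RefSeq windows of GRCm38.p6, 250 bases before to 50 after a start, on the gene's strand, with any searched motif in capitals. The Plin2 window is chr4:86670010-86670309 on the minus strand and the Cpt1a window chr19:3323051-3323350 on the plus strand.
Plin2: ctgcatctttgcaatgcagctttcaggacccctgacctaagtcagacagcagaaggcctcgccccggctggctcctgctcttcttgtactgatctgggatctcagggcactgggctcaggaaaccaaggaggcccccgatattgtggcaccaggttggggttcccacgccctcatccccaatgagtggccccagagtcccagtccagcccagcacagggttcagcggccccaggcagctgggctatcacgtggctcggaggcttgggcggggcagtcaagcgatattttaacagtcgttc
Cpt1a: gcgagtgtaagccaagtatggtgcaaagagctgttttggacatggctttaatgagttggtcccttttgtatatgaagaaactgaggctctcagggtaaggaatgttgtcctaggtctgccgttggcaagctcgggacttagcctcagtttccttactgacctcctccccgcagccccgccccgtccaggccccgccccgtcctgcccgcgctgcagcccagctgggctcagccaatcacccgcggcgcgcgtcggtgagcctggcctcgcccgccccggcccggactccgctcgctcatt
The motifs searched on both strands were the sterol regulatory element TCACNCCAC, AP-1 TGANTCA, the cAMP response element TGACGTCA and, by name, direct repeat 1 (the PPAR element), the C/EBP-ATF, direct repeat 4 (the LXR element), NF-kB and heat shock elements and the CLEAR box. None of them is in the 2 windows, and direct repeat 4 was searched after the results were seen. Over all 32851 windows, 0.381% held direct repeat 1 and 1.24% the sterol element, and of the called genes with a window, 22 higher and 24 lower, none held either. AP-1 letters, in 7.81% of all windows, were in those of Mt2 and Sipa1l2, the cAMP element (1.79%) in that of Plk2 and the NF-kB element (1.20%) in those of Nfkbia and Tnn. These windows miss distal elements and introns, so a missing match says only that the letters are not in these bases.

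Among LXR targets, a pair rose. Mylip encodes an E3 ubiquitin ligase that degrades lipoprotein receptors. Its levels were 232, 243 and 224 CPM in WT Control, 308, 318 and 307 in WT palmitate, 222, 245 and 216 in KO Control and 299.8, 307 and 275 in KO palmitate, so that all 6 palmitate libraries exceeded all 6 Controls. The rise was 1.31-fold (log2 0.39 ± 0.05 SE, adjusted p = 4.03e-07, edgeR). Abcg1, a transporter that exports cholesterol to high-density lipoprotein and a gene that the study singled out, stood at 205, 235 and 228 CPM in WT Control and 265, 263 and 297 in WT palmitate. In KO it stood at 180.4, 185 and 212 in Control and 263, 248 and 232 in palmitate, with no overlap within a genotype (log2 0.33 ± 0.05 SE, adjusted p = 6.67e-05, edgeR). Abca1, the other main cholesterol exporter and LXR target, was at 911 to 1165 CPM in Control and 1031 to 1092 in palmitate, and its log2 difference of 0.05 had a 95% interval of -0.03 to 0.14. The list of 17 LXR and efflux genes, all tested, had 2 called higher, none lower and a median of 0.02.

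Of 33 tested genes of sterol and fatty acid synthesis, 24 had a log2 fold change below 0, as did 50.1% of all genes, and the median was -0.16. By the test, 2 of them fell and 1, Mylip, which is on this list and on the LXR list, rose. Of genes for fatty acid synthesis, Acly, Acaca and Fasn, which make cytosolic acetyl-CoA, malonyl-CoA and palmitate, had log2 differences of 0.01, 0.00 and -0.16, and Acss2 and Me1, which supply acetyl-CoA and NADPH, had -0.21 and -0.17. The regulators Srebf1, Srebf2 and Insig1 had 0.03, -0.14 and -0.09, and none of these 8 passed the test.

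**Figure D3:**
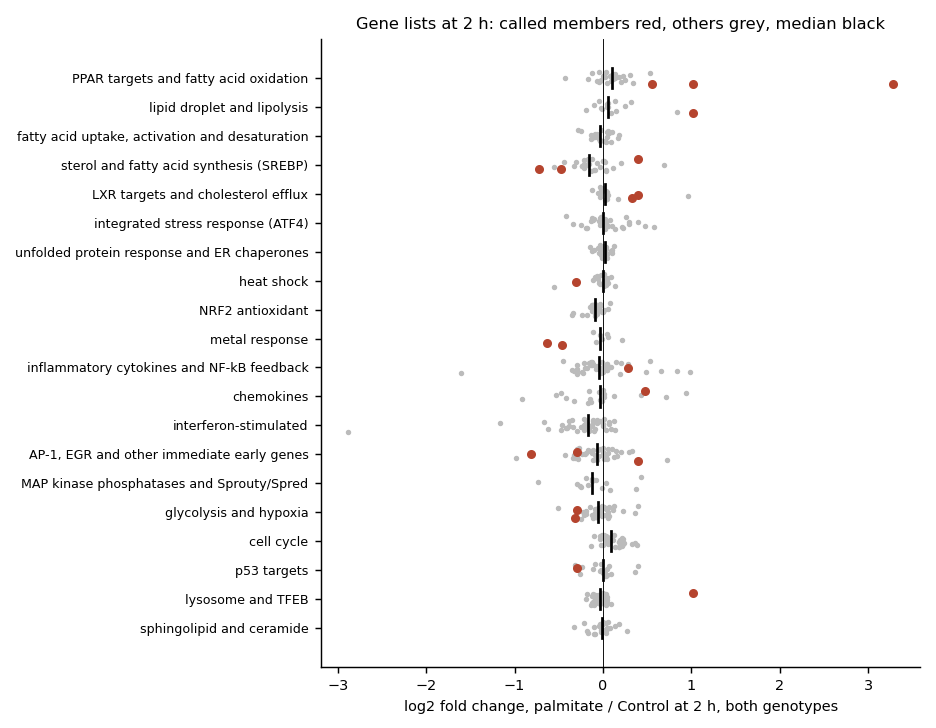
Log2 fold change of palmitate over Control at 2 h (horizontal axis) of the tested members of 20 gene lists. Called members are red, the others grey and the median of a list is a black bar; medians lie between -0.17 and 0.10, and most lists have no called member or 1.

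Several other genes, some of them regulators, rose with no overlap between palmitate and Control in either genotype. The rule for naming the called genes of smallest adjusted p required this trait. Klf11, a Krüppel-like transcription factor, had 5.23, 5.46 and 4.3 CPM in WT Control and 12.9, 8.55 and 10.5 in WT palmitate. In KO it had 1.99, 3.94 and 4.24 in Control and 10.2, 9.49 and 7.99 in palmitate (log2 1.26 ± 0.20 SE, adjusted p = 0.000123, edgeR). Rara, the retinoic acid receptor alpha, was at 41.4 to 48.3 CPM in the 6 Control libraries and 54.5 to 64.2 in the 6 palmitate libraries (log2 0.36 ± 0.07 SE). Chst15, a chondroitin sulfate sulfotransferase expressed at a low level, was at 2.32 to 3.98 CPM in Control and 4.63 to 8.21 in palmitate (2.05-fold, adjusted p = 0.00347, edgeR). Dtx4 and Socs7, which encode an E3 ligase of Notch signaling and a suppressor of cytokine signaling protein, rose by 0.41 and 0.42 on the log2 scale. Cd300a, an inhibitory lipid receptor of myeloid cells, and Scarb2, a lysosomal membrane protein, rose by 0.36 and 0.25, and Engase, a cytosolic glycosidase, by 0.54 (adjusted p of these 5 between 6.77e-06 and 0.00542, edgeR). In all 8 of these genes the 6 palmitate libraries lay above the 6 Control libraries.

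Fos, an AP-1 subunit and immediate early gene, was at 73.6 to 95.5 CPM in Control and 96.5 to 119.7 in palmitate (log2 0.39 ± 0.07 SE, adjusted p = 0.00229, edgeR). Of 43 immediate early genes tested it was the only one called higher, and Klf2 and Plk2 were called lower. Klf2, a transcription factor that restrains macrophage activation, had 14.7, 12.1 and 9.19 CPM in WT Control and 8.58, 6.27 and 8.2 in WT palmitate, then 13.2, 15.2 and 11.5 in KO Control and 6.53, 7.15 and 6.18 in KO palmitate. It was the largest fall among the genes described here that had no overlap in either genotype, to 0.569 times Control (log2 -0.81 ± 0.15 SE, adjusted p = 0.00229, edgeR).

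The lower gene with the smallest adjusted p was Jag1, a ligand of Notch receptors. Its levels were 134, 144 and 119.6 CPM in WT Control, 89.3, 96 and 101 in WT palmitate, 123, 129 and 129 in KO Control and 93, 91.9 and 96 in KO palmitate, so that every palmitate library was below every Control library (log2 -0.46 ± 0.05 SE, adjusted p = 1.55e-07, edgeR). Rbpj, the DNA-binding partner of Notch, also fell, by 0.26 on the log2 scale, with an adjusted p of 0.0493 in edgeR's test that none of the 12 fits leaving out 1 library kept under the threshold. Hk2, the hexokinase of glucose capture, was at 158 to 199 CPM in Control and 122 to 154 in palmitate (log2 -0.32 ± 0.06 SE, adjusted p = 0.00209, edgeR). Hif1a, the oxygen-regulated transcription factor, was at 253 to 329.7 CPM in Control and 231 to 255 in palmitate, but its adjusted p of 0.0348 stayed under the threshold in only 2 of those 12 fits and was lost in DESeq2 and with robust dispersion. These were the 2 called members of 41 tested glycolysis and hypoxia genes, of which 29 were below 0 with a median of -0.06. Hivep3, a zinc finger protein of kappa-B sites, and Plk2, a polo-like kinase, fell by 0.34 and 0.29 on the log2 scale (adjusted p = 0.00281 and 0.00902, edgeR).

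Mt1 and Mt2, neighbouring genes for metallothioneins, the small cysteine-rich proteins that bind zinc and copper, fell together. Mt1 had 238, 263 and 242 CPM in WT Control and 138, 158 and 175 in WT palmitate, against 160.0, 162 and 186 in KO Control and 138, 157 and 132 in KO palmitate. Mt2 had 43.9, 41.4 and 38.4 and 20.2, 19.6 and 26.9 in WT, then 20.8, 23.1 and 24.6 and 15.1, 16.3 and 21.1 in KO. WT Control was the group that stood high in both genes, and in KO the Mt2 groups overlapped. Neither gene was called in KO alone, where 0 of the 9 tested metal response genes were called, against 2 called lower in WT. The difference between the genotypes was not called for either gene. Over both genotypes the log2 fold changes were -0.46 ± 0.09 and -0.63 ± 0.13 (SE; adjusted p = 0.00347 and 0.00808, edgeR), and the Mt2 call was lost without KO palmitate library 1. The other 7 of 9 metal response genes tested were not called, among them Mtf1, the metal-sensing factor (0.06), and the zinc exporter Slc30a1 (-0.08). The promoter windows of the pair are shown for their metal response elements, searched after the results were seen as TGCACNC and TGCGCNC on both strands. Capitals mark these and, in Mt2, 1 AP-1 match. The Mt1 window is chr8:94178839-94179138 and the Mt2 window chr8:94172368-94172667, both on the plus strand of GRCm38.p6.
Mt1: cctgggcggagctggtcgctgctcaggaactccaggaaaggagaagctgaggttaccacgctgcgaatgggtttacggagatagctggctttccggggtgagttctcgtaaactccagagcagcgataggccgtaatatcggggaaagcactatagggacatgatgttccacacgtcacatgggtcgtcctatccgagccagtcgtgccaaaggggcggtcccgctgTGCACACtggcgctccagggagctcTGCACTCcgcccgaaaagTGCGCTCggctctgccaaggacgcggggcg
Mt2: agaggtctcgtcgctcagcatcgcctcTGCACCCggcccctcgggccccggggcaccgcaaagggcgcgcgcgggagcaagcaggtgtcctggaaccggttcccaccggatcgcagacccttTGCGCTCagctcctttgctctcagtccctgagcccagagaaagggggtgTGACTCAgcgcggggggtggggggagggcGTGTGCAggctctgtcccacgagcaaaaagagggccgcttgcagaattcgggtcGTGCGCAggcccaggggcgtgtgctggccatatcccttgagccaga
The Mt1 window held 3 metal response elements and the Mt2 window 4. Over all 32851 windows, 12.6% held the form with A and 15.4% the form with G, so single matches are common. Of the called genes with a window, 2 of 22 higher and 6 of 24 lower genes held the form with A, and 7 and 10 the form with G. A gene counted if any of its windows held the form, and these genes had 29 and 27 windows. These counts per gene are thus not in the same unit as the shares per window. Atp7a, a copper exporter, was also called lower (log2 -0.23 ± 0.05 SE, adjusted p = 0.0229, edgeR, kept in 5 of the 12 fits that left out 1 library).

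Tgfbi, an extracellular matrix protein, fell by 0.37 on the log2 scale, with groups that overlapped in KO. The difference between the genotypes was not called for Tgfbi or for any other gene of this paragraph. Thbs1 (thrombospondin 1) stood at 1180.1, 1311 and 816 CPM in WT Control and 592 to 744 in WT palmitate, and overlapped in KO, where Control was 641 to 795 and palmitate 498 to 746. Its adjusted p of 0.0197 in edgeR was lost in DESeq2 and with robust dispersion. Cd74, the invariant chain of MHC class II, behaved alike, at 291 to 416 CPM in WT Control and 175 to 266 in WT palmitate, with overlap in KO, and its call was lost in the same 2 analyses. Complement C3 and the interferon receptor chain Ifnar1 fell by 0.31 and 0.21 on the log2 scale. Tnn, an extracellular matrix gene not typical of macrophages, was called lower on very few reads. It had 0, 8.44 and 0.15 CPM in WT Control, 3.62, 4.3 and 2.71 in KO Control and at most 0.19 in any palmitate library, and its call was lost without WT Control library 2 and with robust dispersion. The fibroblast marker list, of which Dcn and Lum were at 0 in all 12 libraries, summed to 2.89 to 68.7 CPM in WT Control, 1.71 to 51.6 in WT palmitate, 88.9 to 144 in KO Control and 2.25 to 409.8 in KO palmitate, and its part in the Tnn values was not tested.

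No inflammatory program was called at 2 h. Of 48 tested cytokine and NF-kB feedback genes, 1 was called higher and none lower, with a median of -0.04. The 1 was Nfkbia, the NF-kB inhibitor and its own target, at 118 to 155 CPM in Control and 146 to 182 in palmitate (log2 0.28 ± 0.06 SE, adjusted p = 0.006, edgeR), and it was lost without KO Control library 3 or KO palmitate library 1. Tnf, the canonical inflammatory cytokine, had 67.7 to 80.3 CPM in Control and 73.9 to 99.3 in palmitate. Its log2 difference was 0.19 with an interval of 0.06 to 0.32 and an adjusted p of 0.319 in edgeR. The log2 differences of Il1b and Cxcl10, both under 8 CPM, had intervals of -0.79 to 0.33 and -0.35 to 0.36, and Il6 had at most 3 counts in any of the 12 libraries. LPS at 2 h, which shares the Control libraries and gives the range of these genes in the same cells, raised Tnf by 4.71, Il1b by 7.76 and Cxcl10 by 6.83 on the log2 scale (adjusted p = 3.9e-47, 3.29e-43 and 1.59e-45, edgeR), in a comparison that called 34.2% of genes. None of 42 tested interferon-stimulated genes was called, 33 of them were below 0 and their median was -0.17, and Oas1a and Oasl2, the 2 of smallest p, had log2 differences of -0.42 ± 0.12 and -0.34 ± 0.12 (SE; adjusted p = 0.106 and 0.337, edgeR).

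Of the integrated stress, unfolded protein, NRF2 and heat shock genes, only 1, Dnajb4, was called. None of 38 integrated stress response genes and none of 31 genes of the unfolded protein response passed the test, with medians of 0.00 and 0.02. Ddit3, which encodes the stress factor CHOP, had 18.3 to 27.4 CPM in Control and 16.2 to 26.3 in palmitate, an interval of -0.39 to 0.01 on the log2 scale. Atf3 and Trib3, targets of the same pathway, had intervals of -0.07 to 0.11 and -0.27 to 0.69 on that scale, with Trib3 at only 4.45 to 8.55 CPM. Gdf15, a secreted stress cytokine and the list member of smallest p, was at 22.6 to 32.6 CPM in Control and 31.5 to 49.3 in palmitate (log2 0.39 ± 0.11 SE, adjusted p = 0.157, edgeR). Of 28 NRF2 antioxidant genes, 24 were below 0 with none called, and Hmox1, the heme oxygenase, had a log2 difference of -0.18 ± 0.05 (SE, adjusted p = 0.149, edgeR). Of 18 heat shock genes 1, the co-chaperone Dnajb4, was called lower (-0.31, adjusted p = 0.0409, edgeR; kept in 3 of the 12 fits that left out 1 library). The 23 sphingolipid and ceramide genes, 38 cell cycle genes, 14 MAP kinase phosphatase and Sprouty genes, 13 RNA decay regulators, 9 genes of inositol, osmolyte and organic anion transport and 10 mitochondrially encoded genes had none called, with medians of -0.01, 0.10, -0.12, -0.05, -0.08 and -0.11. In the p53 list of 19 genes only Plk2 was called, in the lysosome list of 40 only Plin2, and of the 7 genes named by the study only Abcg1. The study named these, beside Irf5 itself, for a difference between genotypes and IRF5 binding, not for a response to palmitate. Separately, the study reports that palmitate lowered Ghitm expression in BMDM of another mouse line. Here Ghitm, the inner mitochondrial membrane protein among those 7, was at 96.8 to 131 CPM in Control and 84.4 to 135 in palmitate. Its log2 difference of -0.05 had an interval of -0.16 to 0.05, and no fall was called. The reason for this difference from the study was not tested.

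One chemokine of 20 tested, Pf4 (platelet factor 4), was called higher. It had 33.7, 46.5 and 33 CPM in WT Control and 61.6, 64.2 and 63.1 in WT palmitate, and overlapping values of 64.2, 64.5 and 42.1 and 78, 59.7 and 61.2 in KO (log2 0.48 ± 0.11 SE, adjusted p = 0.012, edgeR, kept in 8 of the 12 fits that left out 1 library). Granulocyte precursor markers were also measured in these libraries. All 8 tested markers of that list of 14 were at or above 0 with a median log2 difference of 0.56 and none was called, Ngp and Ltf, which encode granule proteins, being the nearest (0.86 ± 0.23 and 0.71 ± 0.21 SE, adjusted p = 0.0694 and 0.178, edgeR). The list summed to 70.6 to 82.8 CPM in WT Control, 98.1 to 112 in WT palmitate, 133 to 214 in KO Control and 165 to 240.3 in KO palmitate, with Ly6g at 0 in all 12 libraries. More cells of a type and more RNA per cell cannot be told apart in such samples, and the part of these cells in Pf4 was not tested. B cell, T or NK cell and dendritic cell markers had no called member, with sums of at most 48.8, 43.3 and 79.1 CPM, and erythroid markers summed to at most 0.80 CPM, with 4 of 9 at 0.

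The responses were then taken apart by genotype, to ask whether deletion of Irf5 alters the early response to palmitate. In WT 32 genes were called (0.275% of genes) and in KO 13 (0.112%), and 9 were called in both in the same direction. Plin2, Angptl4, Cpt1a, Mylip, Dtx4, Cd300a and Abcg1 were the 7 higher in both, and Jag1 was among the 2 lower in both. Each count rests partly on single libraries, with 9 in WT without WT palmitate library 1, 10 without WT Control library 2, 14 without WT palmitate library 2 and 19 without WT Control library 1, and 6 in KO without KO palmitate library 2, 7 without KO Control library 1 or 2 and 8 without KO palmitate library 1. The difference between the genotypes, tested as an interaction, was called for 0 genes (0% of genes) in edgeR and 0 in DESeq2, with 486 unadjusted p under 0.05 in edgeR, and for 16 genes in edgeR with no filter on low counts. Plin2 rose by 0.93 ± 0.06 in WT and 1.10 ± 0.06 in KO on the log2 scale (SE). Angptl4 rose by 3.00 ± 0.24 and 3.57 ± 0.25, with an interval for KO minus WT of -0.23 to 1.37, and Cpt1a by 0.50 ± 0.08 and 0.60 ± 0.08, with an interval of -0.11 to 0.32. The smallest interaction p belonged to Zmym6, a zinc finger gene at 10.5, 8.6 and 9.48 CPM in WT Control, 4.47, 7.03 and 6.06 in WT palmitate, 5.25, 5.19 and 5.09 in KO Control and 9.38, 11.7 and 9.19 in KO palmitate (adjusted p = 0.808, edgeR), followed by Cbx8 and Trps1 (0.88 each).

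The 63 genes were chosen on the mean of the WT and KO responses, so their direction in each is largely fixed by that choice. The median of the 27 higher genes was 0.35 in WT and 0.36 in KO, while that of the 36 lower genes was -0.43 in WT and -0.24 in KO, and 29 of the 36 (80.6%) fell further in WT, against 54.3% of all genes below 0. The smallest interaction adjusted p among the 63 was 0.88, and 12 of them had an unadjusted p under 0.05. Trps1, a GATA-type repressor, had 161, 143 and 137 CPM in WT Control, 102, 112 and 108 in WT palmitate, 112, 105 and 124 in KO Control and 115, 114 and 112 in KO palmitate. WT Control alone stood apart, the call over both genotypes was kept in 2 of the 12 fits that left out 1 library, and the log2 difference was -0.45 ± 0.08 in WT and 0.00 ± 0.08 in KO (SE). Histone gene Hist1h1c, chromatin remodeler Chd7 and Thbs1 had WT Control means of 342 ± 24.1, 175 ± 20 and 1102 ± 257 CPM (SD, n = 3), against 267 ± 21.1, 126 ± 10.4 and 713 ± 77.6 in KO Control.

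**Figure D4:**
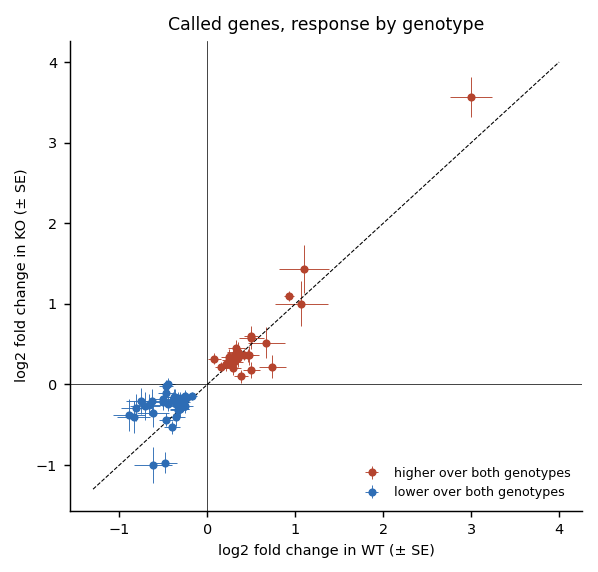
Log2 fold change at 2 h in WT (horizontal) and KO (vertical), each with its SE, of the called genes except Tnn, which is outside the axes. Red genes were higher and blue genes lower over both genotypes; red points lie along the dashed line of equality and most blue points lie above it, with a smaller fall in KO.

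Controls of the 2 h time point were not at the level of untreated cells at 0 h. Plin2 was at 444 ± 27.9 CPM in WT at 0 h, 267 ± 3.23 in Control at 2 h and 511 ± 29.9 in palmitate at 2 h (SD, n = 3 each). In KO the same 3 means were 404 ± 9.17, 248 ± 23 and 529.7 ± 17.7. In WT, Angptl4 had 9.23 to 18.8 CPM at 0 h, 2.32 to 2.52 in the 2 h Control and 15.8 to 22.7 in palmitate. In KO it had 12.8 to 18.5, 1.61 to 1.87 and 19.4 to 23.5. For both genes the 2 h Controls lay below the 0 h libraries without overlap, so the difference from 0 h was smaller than that from the 2 h Control. Jag1, by contrast, was at 75.5 ± 4.67 in WT and 81.6 ± 0.94 in KO at 0 h, below its 2 h Controls, and the palmitate libraries lay between. Chd7 and Thbs1 had 0 h means of 32.7 ± 3.05 and 304 ± 45.2 CPM in WT, also far below their 2 h Controls. None of these differences from 0 h was tested.

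The palmitate response at 24 h was measured in 12 other libraries and called 188 genes higher (1.62% of genes) and 111 lower (0.955%). Of the 63 genes called at 2 h, 19 were called at 24 h in the same direction, 30.2% of the 2 h list and 6.35% of the 24 h list. These were 16 of the 27 higher genes and 3 of the 36 lower genes. The median at 24 h was 0.27 for the 27 higher genes and -0.01 for the 36 lower genes. A test of the difference between the time points, in which 149 genes (1.28%) were called, called 7 of the 27 and 11 of the 36. The 63 genes were chosen on their response at 2 h, and this test uses the same 2 h libraries. A smaller response at 24 h is therefore in part fixed by that choice.

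Among higher genes, Plin2 rose further, to 835 ± 23.8 CPM in WT palmitate at 24 h against 209.8 ± 7.28 in its Control (log2 over both genotypes 2.01 ± 0.04 SE; 2 h minus 24 h -0.99 ± 0.06, adjusted p = 8.5e-18, edgeR). Cpt1a, Cd300a, Scarb2 and Fos also had a larger log2 rise at 24 h, of 0.95, 0.74, 0.70 and 0.84, with the difference called for each. The Angptl4 response was 3.40 ± 0.16 (log2, SE) at 24 h, and the difference from 2 h was not called, with a log2 difference whose interval ran from -0.68 to 0.44. In Mylip and Socs7 the rise was larger at 2 h, with 0.08 and -0.08 at 24 h and differences of 0.31 ± 0.07 and 0.50 ± 0.12 (SE; adjusted p = 0.00831 and 0.0192, edgeR). Of the 31 PPAR targets and oxidation genes, 12 were called higher at 24 h against 3 at 2 h, their median was 0.26 against 0.10, and for 7 the difference between the time points was called. Ucp2 was one of the 7, at 0.14 ± 0.05 (SE) on the log2 scale at 2 h and 0.76 ± 0.05 at 24 h.

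Every one of the 11 lower genes with a called difference had a larger fall at 2 h, or a rise at 24 h. Because these genes were chosen for a fall at 2 h, this direction is in part fixed by the choice. Jag1 was not called at 24 h, at -0.02 ± 0.06 (log2, SE), and the difference between the times was called (adjusted p = 0.000737, edgeR). Its Control mean was 132 ± 12.1 CPM at 2 h and 89 ± 3.74 at 24 h in WT, and 127 ± 3.6 and 91.4 ± 5.6 in KO (SD, n = 3). Its palmitate mean was 95.4 ± 5.79 and 85.2 ± 3.49 in WT, and 93.6 ± 2.14 and 92.6 ± 7.45 in KO. Between the times the Control level thus moved more than the palmitate level. Mt1 was at 0.02 ± 0.09 at 24 h. C3 and Tgfbi turned direction, from -0.31 and -0.37 at 2 h to 0.45 and 0.28 at 24 h, where both were called higher (adjusted p = 9.11e-06 and 0.0204, edgeR). Hk2, Hivep3 and Mef2a were the 3 called lower at both times, the first 2 at -0.27 ± 0.06 and -0.38 ± 0.08 at 24 h.

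**Figure D5:**
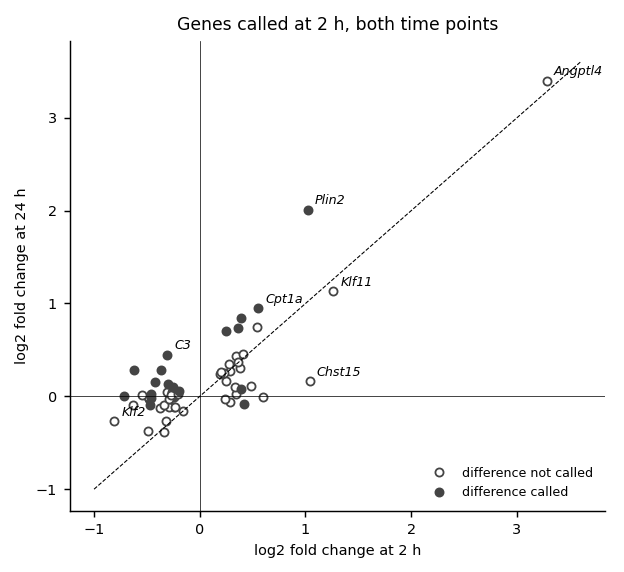
Log2 fold change of palmitate over Control at 2 h (horizontal) and 24 h (vertical) of the genes called at 2 h except Tnn. Filled points are genes whose response differed between the time points by the test; Plin2 and Cpt1a lie above the dashed line of equality, and most lower genes lie near 0 at 24 h.

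Set beside LPS at 2 h, which was compared with the same Control libraries, the lipid genes had other values. Angptl4 and Cpt1a had log2 differences of -0.43 ± 0.31 and -0.08 ± 0.06 (SE) under LPS, neither called, and Plin2 one of 0.19 ± 0.04 (adjusted p = 0.000298, edgeR). Abcg1, higher under palmitate, was at -0.31 under LPS, and Mylip at -0.02. Jag1, Hk2 and Klf2, lower under palmitate, had LPS values of 1.61, 0.28 and 1.38, all called higher. Fos was at -0.48 under LPS and Engase at -1.38, both called lower. Because the Controls are shared, an error in them would move both comparisons, and no likeness of the 2 responses was computed.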

How the data were processed

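Libraries were prepared from total RNA with a stranded kit that removes ribosomal cDNA, and both ends were read. The processing notes name fastp 0.19.11 and STAR 2.7.3a, and the authors aligned reads to mm10 and deposited whole-number, unscaled gene counts. The annotation and the use of strand in counting are not given in the sources used here, so overlapping genes and close paralogs are uncertain. Each column names a group, not a replicate, and libraries are numbered by column order, which pairs nothing. Of 37310 identifiers, 32620 had a symbol, and positions are those of GENCODE M21 (GRCm38, the assembly also called mm10).

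For the tests, edgeR 4.0.16 was run under R 4.3.3. The filterByExpr step left 11624 genes, which held 99.88% of counts. TMM scaling was followed by 1 quasi-likelihood fit of all 42 libraries, each group having its own mean, and contrasts gave the mean response of WT and KO, each genotype, their interaction, the response at 24 h, the difference of the times and LPS at 2 h. P-values were adjusted by Benjamini-Hochberg over all genes tested, and a gene was called under 0.05. Intervals are 95%. The SE is the log2 fold change divided by the square root of F. Replicate pairs of the 12 libraries differed by more than sampling noise (chi-square per degree of freedom 2.32 to 3.64). The fits were also run on simulated counts, in which every changed gene moved by more than the median called gene here (0.34 on the log2 scale). How well smaller changes are recovered was thus not examined.

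Named genes were, by rule, the 15 higher and 15 lower called genes of smallest adjusted p and the 5 of largest change per direction (symbol, mean of at least 1 CPM, no overlap in WT or in KO), up to 4 members per list (or the 2 of smallest p), 3 interaction genes, 5 genes per direction for the difference of times, and a preset list with Angptl4, Plin2, Cpt1a, Tnf, Ddit3 and others. Other genes named were chosen after their values were seen. The members and lists were chosen with earlier results of these data known. 2 called genes are not reported here. Alternatives were RLE size factors, all genes with at least 1 count, only the libraries compared with genotype as an additive block, robust dispersion, the Wald test of DESeq2 1.42.0 and leaving out each library.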

Additional observations from a re-analysis of the deposited data

Results flagged for a closer look

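The response to palmitate differed between 2 h and 24 h, by the test of the difference itself in edgeR, in 16 of the named genes called at 2 h. These genes were chosen on their 2 h response, so a smaller response at 24 h is in part fixed by that choice. The difference is the log2 response at 2 h minus that at 24 h, over both genotypes. It was below 0 because the rise was larger at 24 h in Plin2 (-0.99), Scarb2 (-0.45), Cd300a (-0.38), Fos (-0.46) and Cpt1a (-0.40). It was below 0 with a fall at 2 h in Rnf149 (-0.27), Jag1 (-0.43), Mt1 (-0.48), Fxyd2 (-0.90), Hif1a (-0.43), Hist1h1c (-0.34), Tgfbi (-0.65), C3 (-0.76) and Cd74 (-0.57). It was above 0, the rise being larger at 2 h, in Socs7 (0.50) and Mylip (0.31). Of these genes, Rnf149, Fxyd2, Hif1a, Hist1h1c, C3 and Cd74 were not among the 23 that kept the 2 h call in every fit.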

How the results depend on the processing

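The 63 genes called at 2 h became 110 with no filter on low counts and 109 when only the 12 libraries were fitted, and lay between 28 and 68 when 1 library was left out. In WT the 32 became 76, 83 and, in DESeq2, 50 (9 to 32 with 1 library left out), and in KO the 13 became 34, 21 and 21 (6 to 10). The interaction gave 16 genes with no filter, and 0 in each fit that left out 1 library. The difference of times gave 309 with no filter and 285 with only the libraries compared (104 to 168 with 1 left out). The cause was not tested. Of the 63 genes, 47 kept the call in all 5 analyses other than the leave-one-out fits and 23 in all 12 fits that left out 1 library. A missing adjusted p did not count as a lost call. Among the genes named, the sign changed in 2 near 0 where 1 library was left out, Cxcl10 (-0.07 to 0.12 over those fits) and Atf3 (-0.01 to 0.04). No paired analysis was possible because the columns carry no replicate numbers.

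A count of 3 equalled at least 0.446 CPM, which limits genes such as Tnn, Il6 and Hilpda.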
